A study of Mus musculus with 20 samples.

Results

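The genes described here are 10 markers of the nephron beyond the proximal tubule, measured in laser microdissected blood vessels of the mouse kidney cortex. They were taken by name and not by a cutoff on measured values, although earlier results of these data were known when they were chosen. They are 10 of the 34255 genes in the deposited count table. Umod, Slc12a1 and Kcnj1 belong to the thick ascending limb of the loop of Henle, Slc12a3 to the distal convoluted tubule, and Calb1 to the late distal convoluted and connecting tubule. Aqp2, Aqp3, Fxyd4, Scnn1b and Scnn1g belong to the principal cells of the connecting tubule and collecting duct. The samples came from healthy young adult male wild-type mice of the C57BL6/OlaHsd strain, with no treatment or transgene in any group. The vessel types were arterioles, glomeruli and, from the tubule bed, peritubular capillaries and post-capillary venules, with 4 libraries of each, and 4 libraries of whole kidney were the reference. A microdissected library was a pool of many cut areas from 1 kidney, chosen by shape after a hematoxylin stain or, for peritubular capillaries, after an isolectin B4 stain. By the paper, such cuts also include support cells of the vessel and some contamination from other structures of the kidney. The question addressed was which nephron segment's RNA was found with which vessel, and these data do not locate that RNA.

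Each nephron ends in a fixed order of segments. The thick ascending limb takes up salt without water through the Na-K-2Cl cotransporter Slc12a1, with the potassium channel Kcnj1 returning potassium to the lumen, and it secretes uromodulin (Umod) into the urine. The distal convoluted tubule takes up NaCl through the thiazide-sensitive cotransporter Slc12a3. The connecting tubule moves calcium across the cell with the help of the calcium-binding proteins Calb1 and S100g, and the collecting duct adjusts water through the vasopressin-regulated channel Aqp2 and sodium through the epithelial sodium channel, of which Scnn1b and Scnn1g are subunits. In the cortex the ascending limb returns to its own glomerulus, where the macula densa touches the arterioles, and connecting tubules run up through the cortical labyrinth close to the interlobular vessels.

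Promoter sequences of genes on which the comparisons turn are shown first. No promoter of Calb1 was at hand, so that gene is not among them. Those of Umod, Slc12a3 and Aqp2 are shown, with Aqp3 added because it parted from Aqp2 in arterioles. They are the 250 bases before the transcription start in RefSeq (GRCm38.p6), 5′ to 3′ on the strand of the gene. Umod lies at chr7:119479263-119479512 on the minus strand, Slc12a3 at chr8:94328958-94329207 on the plus strand, Aqp2 at chr15:99578806-99579055 on the plus strand and Aqp3 at chr4:41098184-41098433 on the minus strand. Capitals mark the motifs searched on both strands.
Umod: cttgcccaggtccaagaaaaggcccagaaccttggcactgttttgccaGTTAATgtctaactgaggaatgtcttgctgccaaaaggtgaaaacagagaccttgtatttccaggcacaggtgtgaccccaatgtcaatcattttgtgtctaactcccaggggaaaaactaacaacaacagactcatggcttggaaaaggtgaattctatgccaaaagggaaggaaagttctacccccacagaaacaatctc
Slc12a3: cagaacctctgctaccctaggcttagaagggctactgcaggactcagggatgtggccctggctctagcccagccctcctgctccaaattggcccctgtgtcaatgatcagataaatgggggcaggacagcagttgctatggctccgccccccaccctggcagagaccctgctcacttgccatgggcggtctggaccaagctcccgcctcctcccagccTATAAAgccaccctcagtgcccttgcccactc
Aqp2: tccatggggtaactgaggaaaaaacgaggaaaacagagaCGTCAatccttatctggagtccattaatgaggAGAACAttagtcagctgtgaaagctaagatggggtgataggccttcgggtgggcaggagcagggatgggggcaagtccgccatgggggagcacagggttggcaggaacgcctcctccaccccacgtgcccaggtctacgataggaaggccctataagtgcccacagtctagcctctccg
Aqp3: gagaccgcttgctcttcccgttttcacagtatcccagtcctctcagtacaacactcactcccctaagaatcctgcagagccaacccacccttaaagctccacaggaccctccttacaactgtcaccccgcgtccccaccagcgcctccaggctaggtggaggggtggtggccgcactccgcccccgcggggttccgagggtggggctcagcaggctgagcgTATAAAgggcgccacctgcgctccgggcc

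Promoters were at hand for 9 of the 10 genes, Calb1 being the exception. Of the 4 motifs searched, the TATA box TATAAA was in Slc12a3 and Aqp3, with its first base 32 and 29 bases before the start, and in 12.4% of 32851 RefSeq promoters of that length. The site GTTAAT, 1 arm of the palindrome bound by the renal epithelial factor HNF1, was found in Umod among the 9, 202 bases before the start, against 6.43% of all promoters. The steroid receptor core AGAACA was in Aqp2 and Kcnj1 (16.1% of all), as was CGTCA, the core of a cAMP response element (17.8% of all). Slc12a1, Fxyd4, Scnn1b and Scnn1g held none of the 4. These are matches of letters only.

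The 20 libraries held between 4639090 and 12283098 counts. A count here is 1 sequenced tag from the 3′ end of a transcript, so levels do not depend on transcript length, and they are given as CPM, that is scaled to a common library size of 1000000 counts. In this scale 3 counts stand at 0.205 to 0.635 CPM. All microdissected libraries detected fewer genes (11339 to 14164) than whole kidney (18272 to 20474). The labels were checked against marker lists. Summed over 6 smooth muscle genes the level was 18186 to 43443 CPM in arterioles and at most 1354 CPM in any other library. Summed over 5 podocyte genes it was 6479 to 7457 CPM in glomeruli and at most 1756 CPM elsewhere. The 9 endothelial genes summed to 2170 to 4655 CPM in arterioles, 2863 to 3666 in glomeruli, 529 to 1673 in peritubular capillaries and 1045 to 1366 in venules, against 490 to 583 in whole kidney. The 20 proximal tubule genes, which mark the segment before those described here, summed to 78816 to 143100 CPM in peritubular capillaries and 31231 to 38060 in venules, with 46939 to 49537 in whole kidney, 10634 to 20463 in arterioles and 7866 to 10163 in glomeruli. All microdissected libraries therefore held tubule RNA. In such tissue fewer cells of a type and less RNA per cell cannot be told apart.

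Together the 10 genes took 0.381% ± 0.0161 of all counts in whole kidney (SD, n = 4). They took 0.317% ± 0.0242 in peritubular capillaries, 0.281% ± 0.0843 in venules, 0.112% ± 0.0271 in glomeruli and 0.0752% ± 0.0315 in arterioles. Against whole kidney, 7 of the 10 were lower in arterioles and none was higher, where 5.55% of the 13813 genes tested were called lower and 5.78% higher. In glomeruli 3 were lower and none higher (1.5% of all genes lower and 1.59% higher). None of the 10 was called in peritubular capillaries, where 0.101% of all genes were called in either direction, or in venules, where 0.239% were. At an unadjusted p under 0.05 the genes of the whole table called there numbered 1719 for peritubular capillaries and 1293 for venules. DESeq2 called none of the 10 in either, with 446 and 310 genes called over the whole table. Fits of the 8 libraries alone called 1 and 2 of the 10, with 1434 and 1155 genes called over the whole table. Calls were made with edgeR's quasi-likelihood test at a Benjamini-Hochberg false discovery rate (FDR) under 0.05. The plot of levels by library shows how far the 4 libraries of a vessel type lay apart for each gene, and the plot of fold changes gives the 40 comparisons with whole kidney.

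**Figure D1:**
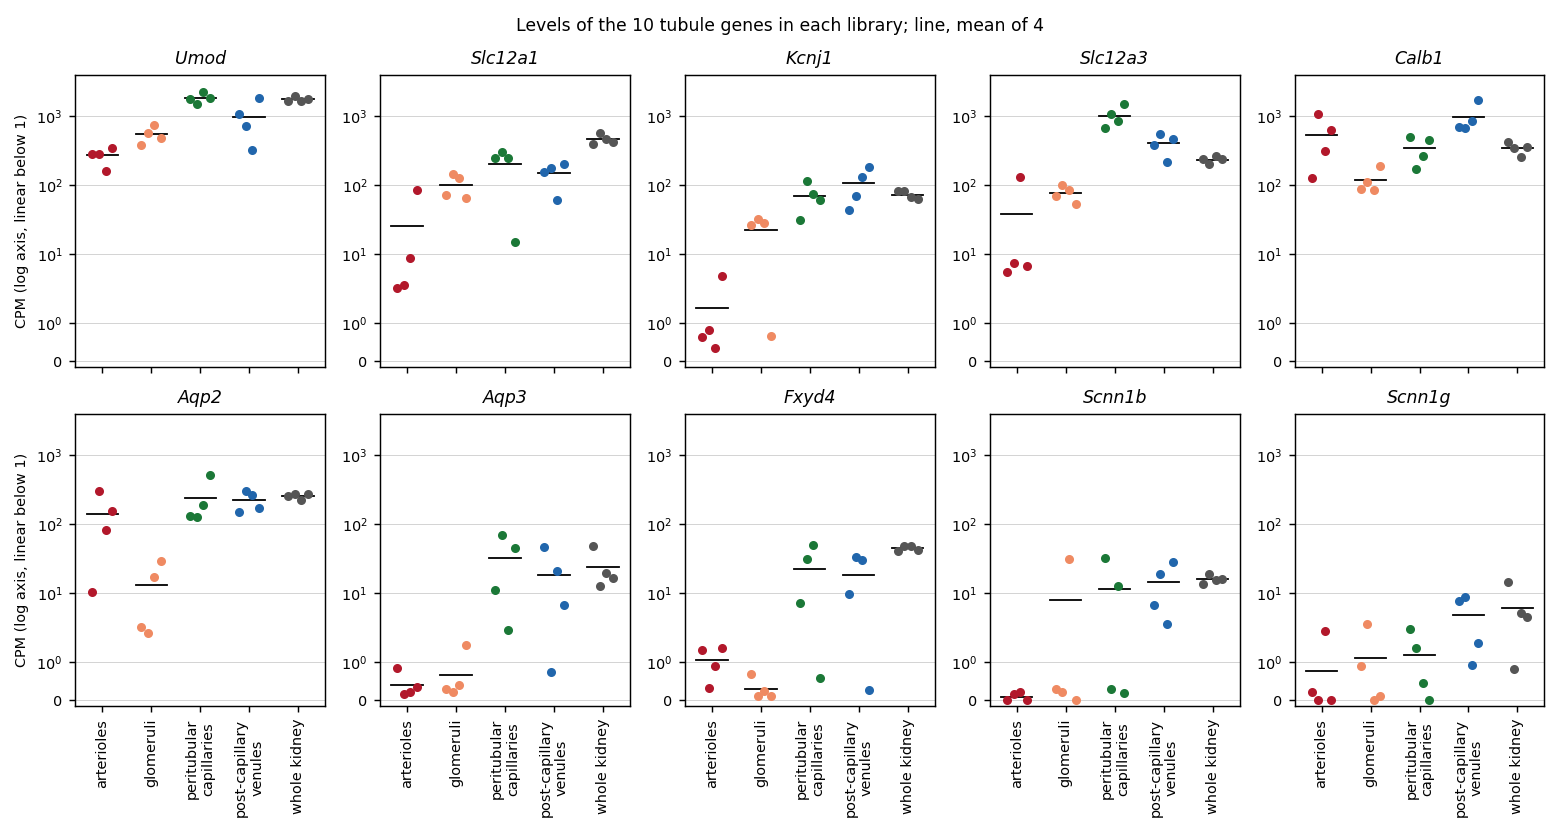
Level of each of the 10 genes (CPM, log axis that is linear below 1) in every library, by group, with the mean of 4 as a line. The arteriole libraries of Calb1 lie on both sides of whole kidney, while Aqp3 (0.161 to 0.853 CPM), Fxyd4 (0.322 to 1.61 CPM) and Scnn1b (0 to 0.225 CPM) are near 0 in all 4.

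**Figure D2:**
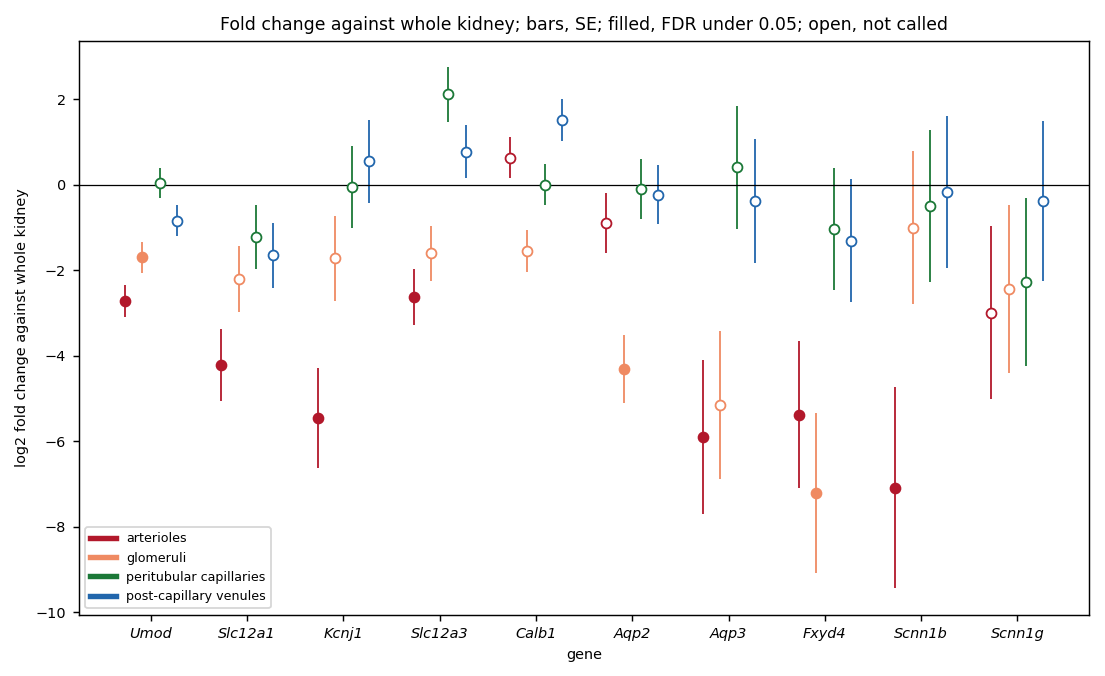
Log2 fold change of each gene in each vessel type against whole kidney, with its SE as a bar; filled points passed an FDR under 0.05 and open points did not. The filled points are the 7 of arterioles and the 3 of glomeruli, all below 0.

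Umod (ENSMUSG00000030963, chromosome 7, 119462711 to 119479282, minus strand, GRCm38), the urinary glycoprotein of the thick ascending limb, was the most abundant of the 10 in whole kidney. Whole kidney libraries held 1651, 1944, 1654 and 1781 CPM, in the order of the library numbers 93, 96, 98 and 100, which is kept throughout. Arterioles held 285, 285, 161 and 341 CPM, and all 4 lay below every library of the other groups except venule library 98 at 325 CPM. Glomeruli held 377, 565, 749 and 479 CPM and also lay below all whole kidney libraries. Peritubular capillaries held 1755, 1481, 2236 and 1808 CPM, a range that overlapped whole kidney on both sides. Venules spread widely, at 1069, 719, 325 and 1821 CPM. Umod was 6.56-fold lower in arterioles than in whole kidney (log2 fold change -2.71, SE 0.38, FDR 3.13e-06) and 3.24-fold lower in glomeruli (-1.70, SE 0.37, FDR 0.00432). No difference was called in peritubular capillaries (0.05, SE 0.36, FDR 0.984) or venules (-0.84, SE 0.36, FDR 0.414).

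Between vessel types, Umod was 6.79-fold lower in arterioles than in peritubular capillaries (FDR 2.5e-05), 3.67-fold lower than in venules (FDR 0.00563), and 3.36-fold lower in glomeruli than in peritubular capillaries (FDR 0.00831). The call against venules did not hold without venule library 100 (FDR 0.0728), and that of glomeruli against peritubular capillaries did not hold with library totals as the only scaling (FDR 0.0692). Arterioles stood at 0.494 of the glomerular mean and did not overlap glomeruli, with an FDR of 0.176, and of 0.00691 for Umod with library totals as the only scaling. In order of mean level, peritubular capillaries and whole kidney, whole kidney and venules, venules and glomeruli, and glomeruli and arterioles were thus neighbours whose difference was not called, although the libraries of the last pair did not overlap.

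Slc12a1 (ENSMUSG00000027202, chromosome 2, 125152505 to 125230002, plus strand), the cotransporter blocked by loop diuretics, fell further in arterioles than Umod did by value. Whole kidney held 394, 576, 472 and 427 CPM. Arterioles held 3.20, 3.54, 8.77 and 84.8 CPM, so 1 library of 4 carried most of the signal. Glomeruli held 71.0, 142, 125 and 65.6 CPM, peritubular capillaries 245, 299, 249 and 15.1 CPM, and venules 156, 175, 60.2 and 203 CPM. Every microdissected library lay below every whole kidney library. Slc12a1 was 18.6-fold lower in arterioles than in whole kidney (log2 fold change -4.22, SE 0.84, FDR 0.000746). The values in glomeruli (-2.21, SE 0.77, FDR 0.110), peritubular capillaries (-1.21, SE 0.75, FDR 0.561) and venules (-1.65, SE 0.76, FDR 0.466) did not pass. In glomeruli 4 alternatives passed, with FDR between 0.000243 with the 8 libraries fitted alone and 0.0252 with no filter on low counts. Against peritubular capillaries arterioles were 8.06-fold lower (FDR 0.0370), a call lost when arteriole library 93, 96 or 98 or peritubular capillary library 93, 96 or 98 was left out (FDR up to 0.0866). Without arteriole library 100 the log2 fold change there was -5.28 (FDR 0.000507).

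Kcnj1 (ENSMUSG00000041248, chromosome 9, 32372493 to 32399197, plus strand), the potassium channel ROMK of the thick ascending limb and principal cells, stood at 80.9, 80.9, 66.6 and 61.5 CPM in whole kidney. In arterioles it stood at 0.640, 0.805, 0.337 and 4.82 CPM. Venules held 43.1, 68.4, 132 and 181 CPM and peritubular capillaries 30.6, 116, 72.8 and 60.0 CPM, both on either side of whole kidney. Glomeruli held 26.6, 32.4, 28.3 and 0.662 CPM. Arterioles were 43.9-fold lower than whole kidney (log2 fold change -5.45, SE 1.17, FDR 0.00165), 42.3-fold lower than peritubular capillaries (FDR 0.00950) and 64.3-fold lower than venules (FDR 0.0107). They were 13.3-fold below the glomerular mean with an FDR of 0.122. The call against peritubular capillaries was lost when the 8 libraries compared were fitted alone (FDR 0.0936).

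The ratio of Umod to Slc12a1, which mark the same cells, varied widely between libraries of arterioles and of peritubular capillaries, and the ranges of the 4 vessel types overlapped. It was 3.38 to 4.19 in whole kidney, 3.96 to 7.29 in glomeruli and 4.10 to 8.95 in venules. In arterioles it was 89.2, 80.6, 18.3 and 4.02, and in peritubular capillaries 7.16, 4.94, 8.99 and 120. In both groups the highest ratios belonged to the libraries lowest in Slc12a1, and Umod stayed within 161 to 341 CPM in arterioles while Slc12a1 ranged from 3.20 to 84.8. The cause was not tested. Of the 16 thick ascending limb genes listed, 15 were tested against whole kidney. In arterioles 7 were lower (5.55% of all genes) and none higher, with a median log2 fold change of -2.99 against 0.22 over all genes. Besides Umod, Slc12a1 and Kcnj1 these were Egf, the growth factor made in this limb and in the distal convoluted tubule (FDR 0.00306), Cldn10, a claudin of its tight junctions (FDR 0.00958), Ppp1r1a (FDR 0.0198) and Wfdc15b. In glomeruli 3 were lower, where 1.5% of all genes were (Umod, Cldn10 with FDR 0.0118, and Wfdc15b with FDR 0.0489, median -1.70 against 0.25). None was called in peritubular capillaries (median -0.57 against 0.18) or venules (-0.84 against 0.19).

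Slc12a3 (ENSMUSG00000031766, chromosome 8, 94329201 to 94366214, plus strand), the defining cotransporter of the distal convoluted tubule, had its highest level in peritubular capillaries. The 4 libraries there held 671, 1082, 834 and 1477 CPM, all above the 375, 549, 214 and 463 CPM of venules and all above the 235, 201, 262 and 236 CPM of whole kidney. Glomeruli held 68.0, 101, 85.7 and 52.3 CPM. Arterioles held 5.54, 7.24, 131 and 6.60 CPM, with library 98 well apart from the other 3.

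The mean in peritubular capillaries, 1016 ± 351 CPM (SD, n = 4), was 4.35 times the 233 ± 24.8 CPM of whole kidney, with 4 of 4 libraries above all of whole kidney. The fit reported here did not call this difference (log2 fold change 2.12, SE 0.64, p 0.00215, FDR 0.251). For Slc12a3 it passed with the independent filter (FDR 0.0012), with no filter on low counts (FDR 0.0240) and when the 8 libraries compared were fitted alone (FDR 0.00493). Over all genes these settings called 106, 43 and 1434, against 14 in the fit reported here. Peritubular capillaries stood at 2.54 times venules (FDR 0.456). Venules stood at 1.71 times whole kidney (FDR 0.937).

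Slc12a3 separated the vessel types more strongly than it separated them from whole kidney. It was 27.0-fold lower in arterioles than in peritubular capillaries (log2 fold change -4.75, SE 0.77, FDR 3.75e-05), where 4.98% of the 12179 genes tested were called lower. Glomeruli were 13.2-fold lower than peritubular capillaries (-3.72, SE 0.73, FDR 0.000999; 2.29% of all genes called lower). Arterioles were 10.6-fold lower than venules (-3.41, SE 0.72, FDR 0.00320; 1.87% called lower) and 6.20-fold lower than whole kidney (-2.63, SE 0.66, FDR 0.00744), although with the 8 libraries fitted alone these calls were lost (FDR 0.0609 and 0.113). Without arteriole library 98 the arterioles stood at 5.54 to 7.24 CPM, and the difference from glomeruli, -1.03 with an FDR of 0.432 in all libraries, became -3.56 with an FDR of 0.000151. Glomeruli stood at 0.329 of whole kidney (FDR 0.173) and 0.192 of venules (FDR 0.0851), with no overlap in either case. That with venules passed under 5 of the 8 alternatives.

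The distal convoluted tubule list was divided in arterioles, where 5.55% of all genes were lower than in whole kidney and 4.98% lower than in peritubular capillaries. Of 9 listed and tested, 4 were lower than in whole kidney and 4 lower than in peritubular capillaries, the same 4 in both: Slc12a3, Klhl3, the adaptor of a ubiquitin ligase that acts on WNK kinases (log2 fold change -5.77 against peritubular capillaries, FDR 0.00145), Pvalb, the calcium-binding parvalbumin of the early segment (-7.35, FDR 0.00886), and Stk39, the kinase that phosphorylates Slc12a3 (-6.48, FDR 0.0464). The median log2 fold change over the list was -1.83 against peritubular capillaries (0.20 over all genes) but 0.19 against whole kidney (0.22 over all genes). The other 5 genes, none of them called, had higher means in arterioles than in whole kidney: Wnk4 at 54.9 and 43.3 CPM, Cnnm2 at 52.2 and 15.3, Trpm6 at 15.4 and 10.4, Emx1 at 32.4 and 24.3 and Wnk1 at 474 and 417. For Wnk4, Cnnm2 and Emx1 a single arteriole library carried that mean, the arteriole medians being 1.14, 5.36 and 5.08 CPM. Trpm6 had an arteriole median of 9.48 CPM and a highest arteriole library of 42.2 CPM, against a whole kidney median of 10.3 CPM. Pvalb stood at 0.213 to 0.805 CPM in arterioles and at 1.63 to 271 CPM in peritubular capillaries. No gene of the list was called between peritubular capillaries and whole kidney, where its median was 1.30 against 0.18 over all genes.

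Calb1 (ENSMUSG00000028222, chromosome 4, 15881264 to 15908064, plus strand), calbindin-D28k, gave another order of vessels. Venules held 701, 678, 843 and 1704 CPM, and all 4 lay above the 418, 348, 252 and 354 CPM of whole kidney and the 490, 170, 266 and 451 CPM of peritubular capillaries. Arterioles held 124, 1066, 313 and 631 CPM, on both sides of whole kidney. Glomeruli held 88.4, 109, 84.5 and 189 CPM, all below whole kidney. In contrast to the thick ascending limb genes and Slc12a3, Calb1 in arterioles stood at 1.56 times whole kidney with an FDR of 0.358.

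Calb1 was 8.35-fold lower in glomeruli than in venules (log2 fold change -3.06, SE 0.56, FDR 0.00116; 0.731% of all genes were called lower) and 4.54-fold higher in arterioles than in glomeruli (2.18, SE 0.54, FDR 0.0193; 1.33% called higher). The latter call was lost without arteriole library 96 or glomerular library 93, 96 or 98 (FDR up to 0.103), with library totals as the only scaling (FDR 0.117) and when the 8 libraries were fitted alone (FDR 0.066). Venules stood at 2.86 times whole kidney (1.52, SE 0.49, p 0.00347, FDR 0.289), 4 of 4 libraries above all of whole kidney. That difference passed with the independent filter (FDR 0.0125) and when the 8 libraries were fitted alone (FDR 0.00951). Over all genes these settings called 97 and 1155, against 33 in the fit reported here. Peritubular capillaries stood at 0.351 of venules (FDR 0.259), where none of the 10 genes was called and 0.411% of all genes were. At an unadjusted p under 0.05 the genes of the whole table numbered 1370 there. Glomeruli stood at 0.343 of whole kidney (-1.54, SE 0.49, FDR 0.0733), a difference that passed under 5 of the 8 alternatives.

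**Figure D3:**
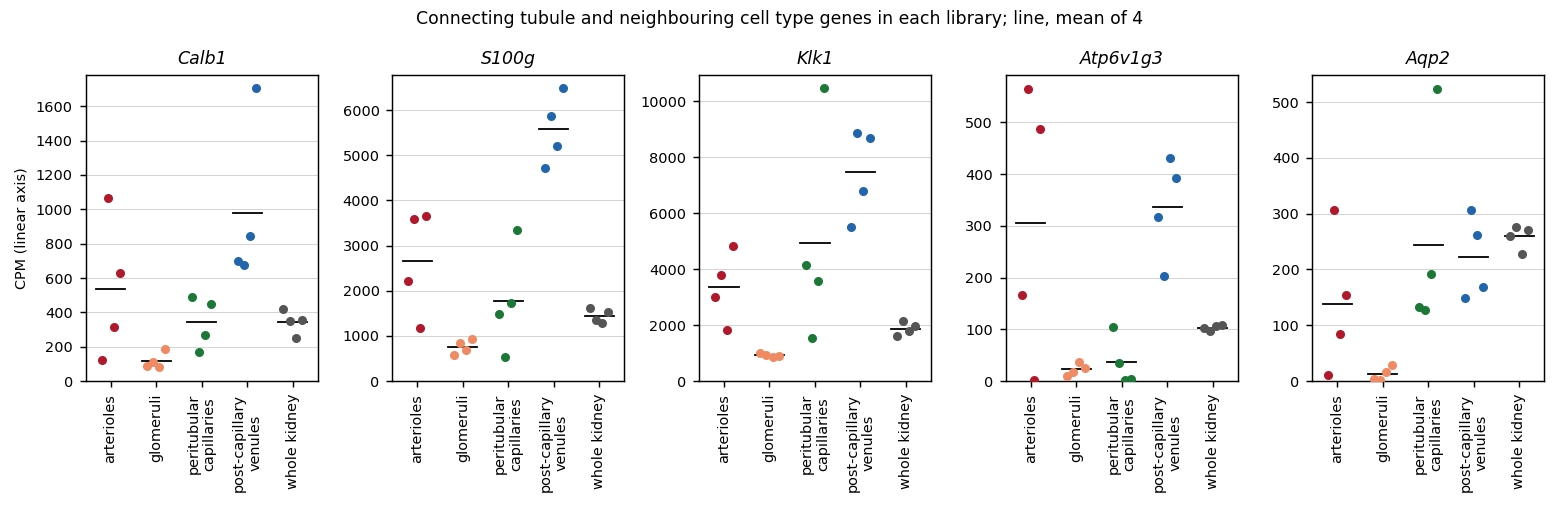
Levels (CPM, linear axis from 0) of Calb1, S100g and Klk1 of the connecting tubule, Atp6v1g3 of intercalated cells and Aqp2 of principal cells in every library, with the mean of 4 as a line. The 4 venule libraries of S100g (4728 to 6490.4 CPM) and Klk1 (5519.8 to 8854 CPM) lie above all whole kidney libraries, and glomeruli have the lowest mean of both genes.

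S100g and Klk1, also of the connecting tubule, had their highest means in venules as well. S100g, calbindin-D9k, stood at 4728, 5879, 5214 and 6490.4 CPM in venules against 1291 to 1624 CPM in whole kidney, and Klk1, tissue kallikrein, at 5519.8, 8854, 6802 and 8697 CPM against 1620.5 to 2137 CPM. Both were higher in venules than in whole kidney (S100g log2 fold change 1.95, SE 0.35, FDR 0.00279; Klk1 1.99, SE 0.33, FDR 0.00116), 2 of the 6 genes listed, with 0.217% of all genes called higher and a list median of 1.65 against 0.19. Both were lower in glomeruli than in venules (S100g FDR 5.49e-06, Klk1 FDR 7.86e-07) and than in peritubular capillaries (S100g FDR 0.0435, Klk1 FDR 1.51e-05), and both were higher in arterioles than in glomeruli (S100g FDR 0.00248, Klk1 FDR 0.000934). S100g was lower in peritubular capillaries than in venules (-1.66, SE 0.37, FDR 0.0246), and Klk1 was lower in arterioles than in venules (-1.16, SE 0.34, FDR 0.0431). Klk1 in peritubular capillaries ranged from 1535 to 10477 CPM. The list did not move as 1 in arterioles, where none of the 6 was called against whole kidney. Trpv5 stood at 0.161 to 0.225 CPM there, against 4.06 to 5.06 in whole kidney and 2.19 to 5.74 in venules. Kl stood at 1.71 to 175 CPM in arterioles against 95.4 to 214 in whole kidney, and Slc8a1 at 177 to 298 against 72.9 to 135. In the plot of connecting tubule genes the venule libraries lie above all others for S100g, while 1 peritubular capillary library lies above them for Klk1.

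Red cell RNA was high in some of the same groups. The 5 erythrocyte genes, 4 of hemoglobin and Alas2 of heme synthesis, summed to 16988 to 51129 CPM in venules, 10528 to 76555 in arterioles, 10527 to 13136 in glomeruli, 898 to 2809 in peritubular capillaries and 2001 to 4039 in whole kidney. Of the 5, 4 were higher in venules than in whole kidney (0.217% of all genes) and 5 in arterioles (5.78% of all genes), and none was at 0 throughout a group. Their part in the results for Calb1, S100g, Klk1 and Aqp2 was not tested.

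Aqp2 (ENSMUSG00000023013, chromosome 15, 99579055 to 99584547, plus strand), the water channel moved to the apical membrane by vasopressin, stood at 260, 277, 228 and 271 CPM in whole kidney. Arterioles held 10.4, 307, 83.5 and 155 CPM, a wide spread with 1 library above all of whole kidney and 3 below. Peritubular capillaries held 132, 128, 191 and 523 CPM and venules 149, 307, 262 and 169 CPM. Glomeruli held 3.21, 2.65, 17.1 and 29.2 CPM and overlapped only arterioles. Aqp2 was 19.9-fold lower in glomeruli than in whole kidney (log2 fold change -4.31, SE 0.80, FDR 0.000742), 18.7-fold lower than in peritubular capillaries (-4.22, SE 0.91, FDR 0.00260) and 17-fold lower than in venules (-4.10, SE 0.91, FDR 0.0117). It was 10.7-fold higher in arterioles than in glomeruli (3.41, SE 0.88, FDR 0.0253), with 3 of 4 arteriole libraries above all glomerular ones. No difference from whole kidney was called in arterioles (-0.90, SE 0.70, FDR 0.383), peritubular capillaries (-0.09, SE 0.70, FDR 0.984) or venules (-0.22, SE 0.70, FDR 1.00). The call of arterioles against glomeruli was lost without arteriole library 96 or glomerular library 93, 96 or 98 (FDR up to 0.108), and under the same scaling and 8-library alternatives as that of Calb1 (FDR 0.0851 and 0.176). The call of glomeruli against venules was lost without glomerular library 93 or 96 (FDR up to 0.0566).

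Aqp3 (ENSMUSG00000028435, chromosome 4, 41092722 to 41098183, minus strand), the basolateral water and glycerol channel of the same principal cells, did not accompany Aqp2 in arterioles. It stood at 0.853, 0.161, 0.225 and 0.357 CPM there, against 48.2, 12.7, 19.5 and 16.7 CPM in whole kidney (60.9-fold lower, log2 fold change -5.90, SE 1.80, FDR 0.0300). Among microdissected libraries Aqp3 in arterioles was not called against peritubular capillaries (FDR 0.0571), venules (FDR 0.117) or glomeruli (FDR 0.887). In glomeruli it stood at 0.301, 0.221, 0.390 and 1.76 CPM, with no call against whole kidney in the fit reported here (-5.16, SE 1.73, FDR 0.0922) and calls by DESeq2 (FDR 7.73e-05), the newer edgeR form (FDR 0.0334) and a fit of 8 libraries (FDR 0.00339). Peritubular capillaries held 11.2, 68.9, 2.91 and 46.0 CPM and venules 46.0, 0.729, 20.9 and 6.83 CPM. Both ranges ran from well under the lowest whole kidney library to near or above the highest, and no difference from it was called.

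Fxyd4 (ENSMUSG00000004988, chromosome 6, 117933559 to 117937692, minus strand), which modulates the Na,K-ATPase in principal cells, was even across whole kidney at 41.4, 49.0, 47.7 and 42.6 CPM. Arterioles held 1.49, 0.322, 0.899 and 1.61 CPM (41.8-fold lower, FDR 0.0378, and 0.0527 with the library number as a block) and glomeruli 0.701, 0.110, 0.234 and 0.110 CPM (156-fold lower, log2 fold change -7.21, SE 1.86, FDR 0.0214). Peritubular capillaries held 7.08, 31.0, 49.9 and 0.587 CPM and venules 9.74, 32.9, 30.01 and 0.268 CPM. In both, library 100 stood far below the other 3. Fxyd4 in arterioles was not called against peritubular capillaries (FDR 0.168), venules (FDR 0.240) or glomeruli (FDR 0.680).

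Scnn1b (ENSMUSG00000030873, chromosome 7, 121865038 to 121918514, plus strand) and Scnn1g (ENSMUSG00000000216, chromosome 7, 121734479 to 121768475, plus strand), the beta and gamma subunits of the epithelial sodium channel, are neighbours 96562 bases apart. Scnn1b had 3 counts in all in the 4 arteriole libraries (0, 1, 2 and 0) against 700 in whole kidney, where it stood at 13.8, 18.8, 15.7 and 16.2 CPM. The ratio of the pooled rates was 207, with an exact 95% interval from 70.7 to 1009 that covers counting error only. The edgeR fit called it lower (FDR 0.0448). Against the other vessel types Scnn1b in arterioles was not called (FDR 0.0937 for peritubular capillaries, 0.119 for venules and 0.194 for glomeruli). Glomeruli held 0.301, 0.221, 31.7 and 0 CPM, so that library 98 alone carried it. Peritubular capillaries held 32.7, 0.295, 12.7 and 0.196 CPM and venules 6.83, 18.96, 3.52 and 28.1 CPM. Scnn1g was low throughout, at 14.4, 0.806, 5.14 and 4.44 CPM in whole kidney and 7.62, 8.75, 0.926 and 1.88 CPM in venules. It stood at 2.98, 1.62, 0.466 and 0 CPM in peritubular capillaries, 0.902, 3.54, 0 and 0.110 CPM in glomeruli and 0.213, 0, 2.81 and 0 CPM in arterioles. The groups overlapped, and no comparison of Scnn1g was called.

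The calls of Aqp3, Fxyd4 and Scnn1b were each lost without most of the single libraries, as was that of Slc12a1 in arterioles against peritubular capillaries. In arterioles against whole kidney, Aqp3 was lost without arteriole library 96, without arteriole library 98 and without each single whole kidney library (FDR up to 0.0855), Fxyd4 without any library except arteriole 100 (FDR up to 0.0801) and Scnn1b without any 1 of the 8 libraries (FDR up to 0.0820). With no filter on low counts all 3 were lost (FDR 0.0750, 0.0852 and 0.0661). In glomeruli against whole kidney, Fxyd4 was lost without any library except glomerular 93 (FDR up to 0.0799). Values of 3 counts or fewer made up 13 of the 40 gene and library values in arterioles, 10 in glomeruli, 4 in peritubular capillaries, 1 in venules and 0 in whole kidney.

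Of the 15 principal cell genes listed, 14 were tested against whole kidney. Over all genes 5.55% were lower and 5.78% higher in arterioles, and 1.5% lower and 1.59% higher in glomeruli. In arterioles 3 were lower (Aqp3, Fxyd4 and Scnn1b) and Gata3 was higher (log2 fold change 3.53, SE 0.76, FDR 0.00182), with a list median of -1.70 against 0.22 over all genes. In glomeruli Aqp2 and Fxyd4 were lower and Gata3 was higher (2.67, SE 0.74, FDR 0.0336), with a median of -1.52 against 0.25. Gata3 is a transcription factor of the collecting duct that mesangial cells also express. None of the 14 was called in peritubular capillaries or venules, where the medians were -0.55 against 0.18 and 0.21 against 0.19. Aqp2 was thus the 1 member of the list called higher in arterioles than in glomeruli, out of 13 tested there, where 1.33% of all genes were called higher.

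Intercalated cells, the acid-base cells scattered among principal cells, were followed by 13 genes. Atp6v1g3, a subunit of their proton pump, stood at 166, 564, 2.81 and 487 CPM in arterioles, at 318, 204, 431 and 391 CPM in venules and at 96.2 to 109 CPM in whole kidney. All 4 venule libraries and 3 of 4 arteriole libraries lay above whole kidney. Glomeruli held 10.2 to 36.2 CPM and peritubular capillaries 1.87 to 105 CPM. Atp6v1g3 was higher in arterioles than in glomeruli (log2 fold change 3.75, SE 1.00, FDR 0.0336) and than in peritubular capillaries (3.07, SE 0.97, FDR 0.0353) and lower in glomeruli than in venules (-3.90, SE 1.01, FDR 0.0401). It was not called against whole kidney in arterioles (FDR 0.199) or venules (FDR 0.563). Atp6v1b1, another subunit of the pump, was lower in glomeruli than in whole kidney (-4.06, SE 1.13, FDR 0.0346). Each of these counts is 1 of the 13 genes. Over all genes 1.33% were higher in arterioles than in glomeruli, 6.22% higher in arterioles than in peritubular capillaries, 0.731% lower in glomeruli than in venules and 1.5% lower in glomeruli than in whole kidney. The summed level of all 13 was 317 to 1254 CPM in arterioles and 721 to 1394 CPM in venules, with 74.2 to 128 CPM in glomeruli, 263 to 597 CPM in peritubular capillaries and 363 to 396 CPM in whole kidney. The list was divided in arterioles, with a median log2 fold change of 0.92 against whole kidney and no call. Foxi1 stood at 0 to 2.02 CPM there, against 7.93 to 15.6 in whole kidney. The arteriole medians of Atp6v0d2, Aqp6 and Slc4a9 were 0.561, 0.748 and 0.601 CPM, against 20.3, 26.2 and 21.2 in whole kidney. That of Slc26a4 was 43.4 against 34.9.

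The macula densa, the plaque of tubule cells that senses salt beside the glomerulus, was read from Nos1, Ptgs2 and Pappa2. Nos1 stood at 16.5 to 93.4 CPM in glomeruli, 5.53 to 55.0 CPM in arterioles, 6.76 to 30.1 CPM in peritubular capillaries and 3.35 to 52.9 CPM in venules. All 16 libraries lay above whole kidney at 0.756 to 1.58 CPM. The differences from whole kidney did not pass (log2 fold change 5.04 and FDR 0.0634 in glomeruli, 4.35 and 0.0506 in arterioles, 4.16 and 0.270 in peritubular capillaries, 4.04 and 0.306 in venules). Ptgs2 and Pappa2 were too low to be tested. Ptgs2 was at 0 in 14 of the 16 microdissected libraries and at most 0.411 CPM in whole kidney, and Pappa2 was at 0 in 14 of the 16, with 24.4 CPM in venule library 100. Slc14a2, the urea transporter of the inner medulla, stood at 14.8 to 25.0 CPM in whole kidney and was under 0.5 CPM in 15 of the 16 microdissected libraries, peritubular capillary library 98 holding 32.1 CPM. Whole kidney contains medulla and the cuts were taken from cortex. Vessel type and kidney zone therefore cannot be told apart in a comparison with whole kidney, of a level or of a ratio. This holds for genes shared by cortex and medulla, such as Umod, Slc12a1, Aqp2 and Aqp3. It also holds for Slc12a3, Calb1, S100g and Klk1, whose share in whole kidney depends on how much medulla it contains. Microdissected libraries also had a low-input protocol and more PCR cycles than whole kidney. In every comparison with whole kidney, vessel type and protocol therefore cannot be told apart. This includes the scarce genes Aqp3, Fxyd4, Scnn1b and Nos1.

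Ratios within a library set 1 segment gene against another whatever the total tubule content, and are given without a test. Against whole kidney they share the limit of kidney zone given above. Umod and Slc12a1 of the same limb kept no steady ratio in arterioles (4.02 to 89.2) or peritubular capillaries (4.94 to 120). A ratio over Umod there depends on the gene that stands for the limb. In arteriole libraries 93, 96 and 98 Slc12a3 stood above Slc12a1 (5.54, 7.24 and 131 against 3.20, 3.54 and 8.77 CPM). In arteriole library 100 and all of whole kidney it stood below. Slc12a3 over Umod was 0.373 to 0.817 in peritubular capillaries and 0.254 to 0.765 in venules, above the 0.103 to 0.158 of whole kidney in all 8 libraries. It was 0.109 to 0.181 in glomeruli. In arterioles it was 0.0194, 0.0254, 0.817 and 0.0194. Calb1 over Umod was 0.656 to 2.59 in venules and 0.436 to 3.73 in arterioles, above the 0.153 to 0.253 of whole kidney in all 8 libraries, while glomeruli (0.113 to 0.394) and peritubular capillaries (0.115 to 0.279) overlapped whole kidney. Aqp2 over Umod was 0.138 to 0.158 in whole kidney and 0.00470 to 0.0611 in glomeruli, and in arterioles it was 0.0366, 1.08, 0.520 and 0.454. Slc12a3 over Calb1 had a median of 3.20 in peritubular capillaries, 0.403 in venules and 0.0275 in arterioles, against 0.623 in whole kidney.

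**Figure D4:**
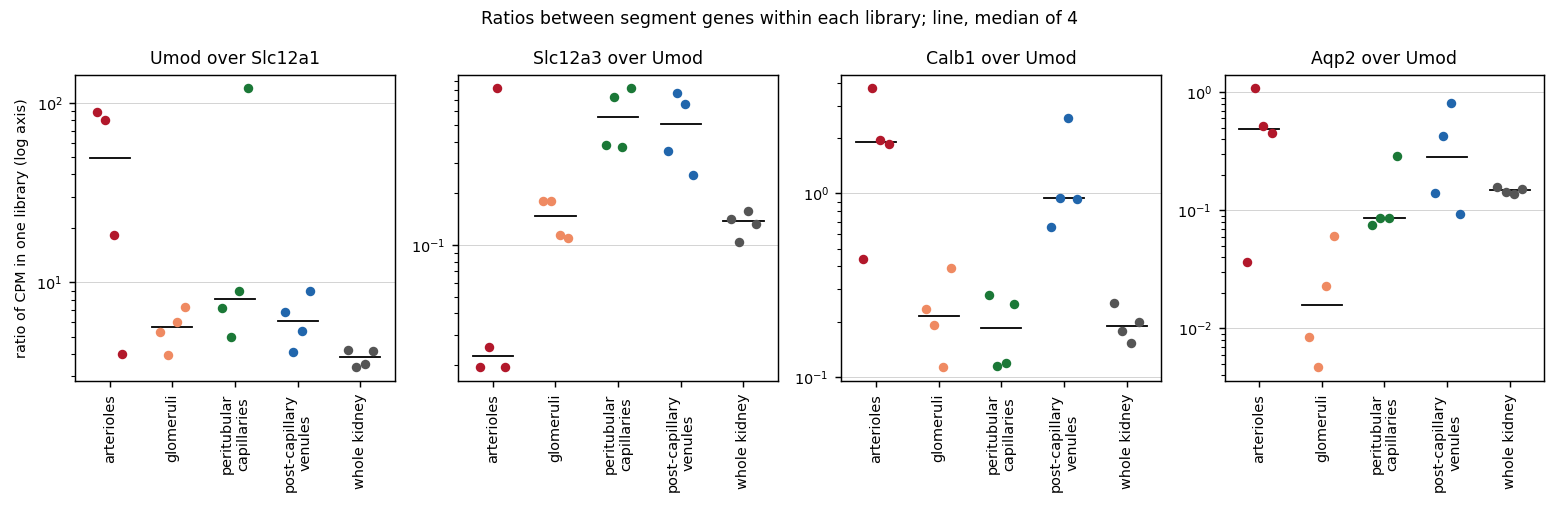
Ratio of the CPM of 2 segment genes within each library (log axis), by group, with the median of 4 as a line. Slc12a3 over Umod lies above whole kidney in all peritubular capillary and venule libraries, and Calb1 over Umod in all arteriole and venule libraries.

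Against the proximal tubule the picture differed again. Per 1000 CPM of the summed proximal tubule list, Umod stood at 37.1 to 88.3 in glomeruli and 33.4 to 40.5 in whole kidney, at 13.2 to 26.8 in arterioles and 12.6 to 22.3 in peritubular capillaries, and at 10.4 to 48.4 in venules. Glomeruli thus held more Umod relative to proximal tubule RNA than arterioles or peritubular capillaries did in every library. Calb1 stood at 18.4 to 45.3 in venules and 11.7 to 83.4 in arterioles, above the 5.09 to 8.90 of whole kidney. It stood at 8.69 to 21.7 in glomeruli, with 3 of 4 libraries above all of whole kidney, and at 1.93 to 6.21 in peritubular capillaries. Slc12a3 stood at 6.86 to 15.7 in venules, 6.70 to 12.3 in peritubular capillaries and 6.02 to 12.9 in glomeruli, above the 4.19 to 5.28 of whole kidney. In arterioles it stood at 0.323 to 10.8. The 4.35-fold higher mean of Slc12a3 in peritubular capillaries moved with proximal tubule genes that stood at a mean sum of 108610 CPM against 48104 CPM in whole kidney, and their part in the result was not tested.

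The genes most like a member across the 20 libraries were sought among 9348 genes by Pearson's correlation of log2 levels. For Calb1 they were S100g (r 0.86), mt-Co1 (0.85) and mt-Nd1 (0.83), the latter pair encoded in mitochondria. For Slc12a3 they were Aldh8a1, Dlst and Hoga1 (0.95, 0.94 and 0.94), for Umod Ugt8a, Cd36 and Ldha (0.90, 0.90 and 0.88), for Aqp2 Atp5pb, Tmem64 and Mdh1 (each 0.87) and for Aqp3 Mgat3, Pde6a and BC049987 (0.94, 0.89 and 0.87). Among the members themselves Calb1 correlated with Aqp2 at 0.76 but with Umod, Slc12a1, Slc12a3 and Kcnj1 at 0.13, -0.01, 0.15 and 0.19, whereas Umod correlated with Slc12a1, Kcnj1 and Slc12a3 at 0.74, 0.75 and 0.73. The points share groups and libraries, so these values describe the grouping as much as the genes. S100g is the 1 connecting tubule gene among these 15.

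Annotation limits apply to 3 of the 10. Umod and Slc12a1 each overlap an antisense gene of GENCODE M21 at an exon, and Scnn1b overlaps Cog7 on the other strand. No source used here gives the strand setting of the counting, and reads of the overlapping pairs cannot be told apart at these places.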

How the data were processed

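RNA of cryosections was turned into 3′ tag libraries (Lexogen QuantSeq), with a low-input protocol and more PCR cycles for microdissected samples than for whole kidney. The submitters' processing notes name FastQC 0.11.8, MultiQC 1.7, STAR 2.7, SAMtools 1.9, HTSeq 0.13 and featureCounts and the builds GRCm38.p6 and GRCm39. The authors deposited 1 table of raw counts per gene, neither normalized nor filtered, and its gene identifiers were placed on GENCODE M21 (GRCm38). Of its 168 sample columns, 20 were matched to the labels by compartment and 148 were not used. Libraries are named by the number in their column, which the labels do not tie to a replicate, and the header of column 96 of the peritubular capillaries has 2 more letters that no source explains. Replicates within a group are biological ones by their titles. By the study's methods a mouse gave arteriole, glomerulus and venule cuts from 1 slide and capillary cuts from another, so vessel types share mice, but no source says which libraries do, and the fits treat them as separate. No 2 columns were identical.

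Counts were tested with edgeR 4.0.16 (R 4.3.3) by its quasi-likelihood test with TMM scaling, the filterByExpr filter and Benjamini-Hochberg adjustment over all genes tested, at an FDR under 0.05 and with no limit on fold. Comparisons with whole kidney used 1 fit of the 20 libraries (13813 genes) and comparisons between vessel types 1 fit of the 16 microdissected libraries (12179 genes). Levels are CPM scaled by TMM. The SE of a log2 fold change is its size over the square root of F. Comparisons that share whole kidney or a vessel type share those samples. All 10 genes are named, and in other lists the plan was to name the up to 3 genes of lowest p in a comparison. This was not done for the proximal tubule, endothelium, smooth muscle and podocyte lists, given as sums. Nor was it done for the erythrocyte list, given as sums and counts. Genes alike in pattern were ranked by Pearson's r of log2(CPM + 1) among genes with a mean of at least 10 CPM. The genes and lists were chosen with earlier results of these data known. The count floor is 3 counts and intervals are exact (95%). On simulated counts for 13512 genes of the whole kidney fit, 4 of 50 genes lowered by 3 log2 units in arterioles against whole kidney and 9 of 50 raised by 3 were called, and 0 of 50 at 1.5 in either direction. In arterioles against glomeruli 3 of 50 lowered and 15 of 50 raised by 3 were called. The simulation changed fewer genes than the 798 higher and 767 lower calls of the data in arterioles against whole kidney. Its adjustment was therefore stricter there, and its rates do not carry over to the data. A missing call is not read as no difference. Alternatives were RLE scaling, library totals as the only scaling (added after the data were seen), no filter, an independent filter, the edgeR 4 form of the test, DESeq2 1.42.0, a fit of the 8 libraries compared, a replicate block and each library left out.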

Additional observations from a re-analysis of the deposited data

Results flagged for a closer look

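In 8 of the 50 sets of 4 libraries, 1 library stood apart from the other 3 by Dixon's test. Its cutoff flags about 1 set in 20 by chance where values are normally distributed. The CPM used were not log-transformed and cannot fall below 0, so that rate does not apply here and high values are flagged more readily. The number of flags is therefore not read as an excess. In arterioles these were Slc12a1 at 84.8 CPM and Kcnj1 at 4.82 CPM, both in library 100, and Slc12a3 at 131 CPM and Scnn1g at 2.81 CPM, both in library 98. In venules Calb1 stood at 1704 CPM in library 100, and in peritubular capillaries Aqp2 at 523 CPM in library 100. In glomeruli Aqp3 stood at 1.76 CPM in library 100 and Scnn1b at 31.7 CPM in library 98. Each of the 8 was the highest of its 4 libraries, none was the lowest, and none was in whole kidney. In arterioles the library that stood apart for the thick ascending limb genes Slc12a1 and Kcnj1 was not the one that stood apart for Slc12a3 and Scnn1g.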

How the results depend on the processing

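No called difference of the 24 changed direction under any alternative. Of 191 reruns of these 24 results with another setting, 176 kept the call and 15 lost it, and of 192 reruns without 1 library, 147 kept it and 45 lost it; 50 and 4 reruns of uncalled results gained a call. The causes were not tested. The number of the 10 genes called moved by over 1.5 times as follows, with the number over all genes beside it. In the fit reported here 758 genes were higher and 606 lower in arterioles against peritubular capillaries. In glomeruli against whole kidney 219 were higher and 207 lower. That fit called 14 genes in peritubular capillaries and 33 in venules against whole kidney, and 50 between these vessel types. DESeq2 called 4 in arterioles against glomeruli (2 as reported), 7 in arterioles against peritubular capillaries (4) and 6 in arterioles against venules (3). It called 5 in glomeruli against peritubular capillaries (3) and 4 in glomeruli against venules (2). Over all genes it called 2025, 3386, 2438, 1722 and 788 in these comparisons, in that order. The edgeR 4 form called 6 in glomeruli against peritubular capillaries (1155 over all genes) and 6 in glomeruli against whole kidney (3 as reported, 1127 over all genes). With no filter 4 were called in arterioles against whole kidney (7), 6 in glomeruli and 1 in peritubular capillaries (0). Over all genes the numbers there were 1183, 412 and 43. With the independent filter 5 members passed against whole kidney for glomeruli, 1 for venules (0) and 1 for peritubular capillaries. Over all genes 669, 97 and 106 passed. Fits of the 8 libraries compared called 0 in arterioles against glomeruli, 2 in arterioles against peritubular capillaries and 7 in glomeruli against whole kidney. They called 2 between peritubular capillaries and venules (0), and 1 in peritubular capillaries and 2 in venules against whole kidney. Over all genes these fits called 344, 618, 3017, 116, 1434 and 1155, in that order. Library totals alone called 1 in arterioles against glomeruli, Umod as lower, and neither of the 2 reported, with 285 called over all genes. Without 1 library the count ranged from 0 to 4 in arterioles against glomeruli, from 4 to 6 in arterioles against whole kidney and from 1 to 2 in glomeruli against venules. For these last reruns the number over all genes was not computed.

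Scaling moved all genes together: with library totals alone all genes had a median log2 fold change of -0.32 in place of 0.22 in arterioles against whole kidney, -0.27 in place of 0.18 in peritubular capillaries, -0.41 in place of 0.27 in arterioles against glomeruli and 0.63 in place of 0.06 in glomeruli against peritubular capillaries. Uncalled differences that changed sign were as follows, as log2 fold changes. With library totals alone these were Aqp2 in peritubular capillaries against venules (-0.25), Calb1 in arterioles against whole kidney (-0.074), Scnn1g in glomeruli against peritubular capillaries (0.21) and, in peritubular capillaries against whole kidney, Umod (-0.42), Calb1 (-0.48) and Aqp3 (-0.063). In that comparison Calb1 stood at -0.014 with DESeq2, RLE scaling, the independent filter and no filter and at -0.044 in the 8-library fit, where Umod stood at -0.012. Without 1 library, against whole kidney, the ranges were -0.79 to 0.12 (Aqp2), -0.28 to 0.98 (Aqp3), -0.22 to 0.23 (Calb1), -0.42 to 0.19 (Kcnj1) and -0.069 to 0.13 (Umod) in peritubular capillaries, and -1.36 to 0.19 (Aqp3), -0.72 to 0.16 (Scnn1b) and -0.83 to 0.47 (Scnn1g) in venules. In peritubular capillaries against venules they were -0.59 to 0.34 (Aqp2), -0.51 to 0.72 (Fxyd4) and -1.71 to 0.22 (Scnn1b), in arterioles against glomeruli -1.38 to 0.35 (Aqp3) and -3.78 to 1.14 (Scnn1g), in arterioles against peritubular capillaries -3.94 to 0.12 (Scnn1g) and in glomeruli against peritubular capillaries -5.83 to 0.87 (Scnn1b) and -1.89 to 0.69 (Scnn1g).

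Libraries with the same number did not deviate together from their group means (40 pairs, median r 0.008, range -0.053 to 0.071), and no source ties the numbers to mice, so they were not taken as a pairing. With a replicate block on these numbers Fxyd4 in arterioles against whole kidney lost its call (FDR 0.0527), Calb1 in glomeruli against whole kidney (FDR 0.0421) and Slc12a3 in glomeruli against venules (FDR 0.0297) gained one, and Aqp2 in peritubular capillaries against venules (-0.10) and Scnn1b in venules against whole kidney (0.26) changed sign. No other call changed with the block. Low counts limit Aqp3, Fxyd4, Scnn1b and Scnn1g most, of which Scnn1b had 3 counts in all arterioles.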
